A study of Mus musculus with 15 samples.

Results

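The 10 genes described here encode the NF-κB transcription factor subunits and the IκB kinase (IKK) family in mouse bone marrow-derived macrophages (BMDM). They were chosen by gene symbol: Rela, Relb, Rel, Nfkb1 and Nfkb2 for the subunits, and Chuk, Ikbkb, Ikbkg, Tbk1 and Ikbke for the kinases and their scaffold. All 10 were found among the 23996 genes of the expression table. Polyadenylated RNA was sequenced from 15 libraries in 5 groups of 3. The groups were resting Nelfb KO, resting WT, Nelfb KO treated with LPS (10 ng/ml) for 0.5 h, WT treated for 0.5 h and WT treated for 1 h. LPS, or lipopolysaccharide, is a bacterial cell wall component sensed by TLR4. BMDM came from C57BL/6 mice and were grown with medium conditioned by L929 cells, a source of macrophage colony-stimulating factor. Nelfb KO mice were Nelfb fl/fl with Lyz2-Cre, and WT mice were Nelfb +/+ with the same Lyz2-Cre, so both genotypes carried the Cre. Lyz2-Cre is active in myeloid cells, and Nelfb encodes a subunit of the negative elongation factor (NELF), which holds RNA polymerase II near promoters. The ages of the mice are not given in the sources used here.

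Expression was available as 1 FPKM value per gene and group (fragments counted for a gene, scaled to its transcript length and to all mapped fragments of the library), the authors' mean of 3 libraries. The spread between libraries and the depth of each library are therefore unknown here, and no SD, interval or test accompanies any value. A log2 ratio below is the log2 of (FPKM + 1) of the group named first over that of the other, and a gene was counted as past the limit at a 1.5-fold difference in FPKM + 1. These counts were read against all 11258 genes that averaged 0.5 FPKM or more over the 5 groups, called the kept genes. The deleted gene, Nelfb, had 5.65 FPKM in resting Nelfb KO and 21.9 FPKM in resting WT, and 5.55 FPKM in Nelfb KO and 19.7 FPKM in WT at 0.5 h. Of the macrophage markers, all 8 in the table had at least 27.97 FPKM in every group. The 4 neutrophil and the 4 T and B cell markers stayed under 1 FPKM in every group. Of 4 fibroblast markers, 3 had at least 1 FPKM in every group, and the FPKM summed over the 4 ranged from 11.4 in resting WT to 14.9 in Nelfb KO at 0.5 h. The part of such cells in the results below was not tested. In bulk RNA, fewer cells of a type and less RNA per cell cannot be told apart.

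NF-κB factors are dimers of Rel family proteins. RelA (p65), c-Rel and RelB carry activation domains, whereas Nfkb1 and Nfkb2 encode the precursors p105 and p100 of the DNA-binding subunits p50 and p52. In resting cells IκB proteins hold the dimers in the cytoplasm. Signals from TLR4 activate the kinases IKKβ (Ikbkb) and IKKα (Chuk), held by the scaffold NEMO (Ikbkg), and phosphorylated IκB is then degraded. The related kinases TBK1 (Tbk1) and IKKε (Ikbke) act on the interferon regulatory factors IRF3 and IRF7. Several NF-κB subunit genes are themselves known NF-κB targets.

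Promoter sequences from RefSeq (GRCm38.p6) were matched for 7 of the 10 genes, with none for Relb, Nfkb1 and Ikbkb. The 250 bases before each start were searched on both strands for the κB consensus, the DNA site bound by NF-κB dimers. The upstream sequences of Rel and Rela are shown for the subunit genes with the largest and a smaller response to LPS, and those of Tbk1 and Ikbke for the kinases. The stretches are chr11:23770971-23771219 (minus strand), chr19:5637291-5637482 (plus strand), chr10:121586795-121587044 (minus strand) and chr1:131279607-131279813 (minus strand). Each is written 5′ to 3′ up to the first annotated exon, with capitals for κB matches.
Rel: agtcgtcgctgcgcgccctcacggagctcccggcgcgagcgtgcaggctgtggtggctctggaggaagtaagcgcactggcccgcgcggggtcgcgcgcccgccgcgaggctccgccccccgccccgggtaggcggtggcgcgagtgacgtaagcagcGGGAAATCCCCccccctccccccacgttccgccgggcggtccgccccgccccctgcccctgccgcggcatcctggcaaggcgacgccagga
Rela: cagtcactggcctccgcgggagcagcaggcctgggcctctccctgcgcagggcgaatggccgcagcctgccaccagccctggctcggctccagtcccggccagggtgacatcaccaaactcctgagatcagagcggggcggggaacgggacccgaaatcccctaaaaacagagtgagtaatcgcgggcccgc
Tbk1: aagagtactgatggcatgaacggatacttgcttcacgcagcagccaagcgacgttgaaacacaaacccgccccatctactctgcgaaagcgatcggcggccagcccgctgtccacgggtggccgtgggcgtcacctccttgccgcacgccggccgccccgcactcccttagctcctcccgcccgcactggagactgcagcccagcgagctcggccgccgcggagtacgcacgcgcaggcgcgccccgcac
Ikbke: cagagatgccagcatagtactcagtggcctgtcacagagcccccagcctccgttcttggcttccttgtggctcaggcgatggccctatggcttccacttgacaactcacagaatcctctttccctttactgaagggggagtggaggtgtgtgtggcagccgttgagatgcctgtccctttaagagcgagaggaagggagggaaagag

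A κB match was found for 2 of the 7 genes, Rel and Nfkb2, and such matches were present in 7.25% of all 32851 promoter windows. Some genes have several starts, and the 7 genes had 12 windows between them. For every motif here the count is by gene and the share by single window. Genes with several windows thus had more chances of a match. In Rel there were 2 overlapping matches, which began 92 and 91 bases before the start. Nfkb2 has 3 annotated starts, and its matches lay in regions that are also annotated as exons, so only the sites with their flanks are shown, with the match in capitals. They lie on the plus strand at chr19:46304688-46304717, chr19:46304716-46304736, chr19:46305449-46305478 and chr19:46305695-46305724.
Nfkb2 site A: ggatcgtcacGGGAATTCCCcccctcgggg
Nfkb2 site B: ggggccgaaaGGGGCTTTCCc
Nfkb2 site C: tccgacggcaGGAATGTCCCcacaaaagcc
Nfkb2 site D: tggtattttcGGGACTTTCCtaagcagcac
At site A a further match overlapped by all but 1 base. The windows of Rela, Chuk, Ikbkg, Tbk1 and Ikbke held no match to the κB consensus. The GC box GGGCGG was found upstream of 6 of the 7 genes (32.7% of all windows), all but Ikbke, with 5 copies in Rel and 3 in Tbk1. TATAAA was found in none of the 7 (12.4% of all windows), and the AP-1 motif TGANTCA in Nfkb2 and Ikbkg (6.75% of all windows). A match is a run of letters and was not tested as a bound site.

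All 10 genes were expressed well above the filter of 0.5 FPKM in every group, from 5.65 FPKM for Rel in resting WT to 77.7 FPKM for Ikbke in resting WT. Ikbke, encoding IKKε, had the highest FPKM of the 10 in all 5 groups, and Rel, encoding c-Rel, had the lowest in the 4 groups other than WT at 1 h. In resting WT the order was Ikbke (77.7 FPKM), Rela (37.9 FPKM), Tbk1 (34.3 FPKM), Nfkb1 (34.2 FPKM), Nfkb2 (33.3 FPKM), Relb (26.9 FPKM), Ikbkb (23.1 FPKM), Chuk (13.8 FPKM), Ikbkg (13.7 FPKM) and Rel (5.65 FPKM). Whether neighbours in this order, such as Tbk1, Nfkb1 and Nfkb2, or Chuk and Ikbkg, differed beyond the spread between libraries is unknown. Among the 10441 genes with at least 1 FPKM in resting WT, 89% lay below Ikbke and 30.1% below Rel.

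**Figure D1:**
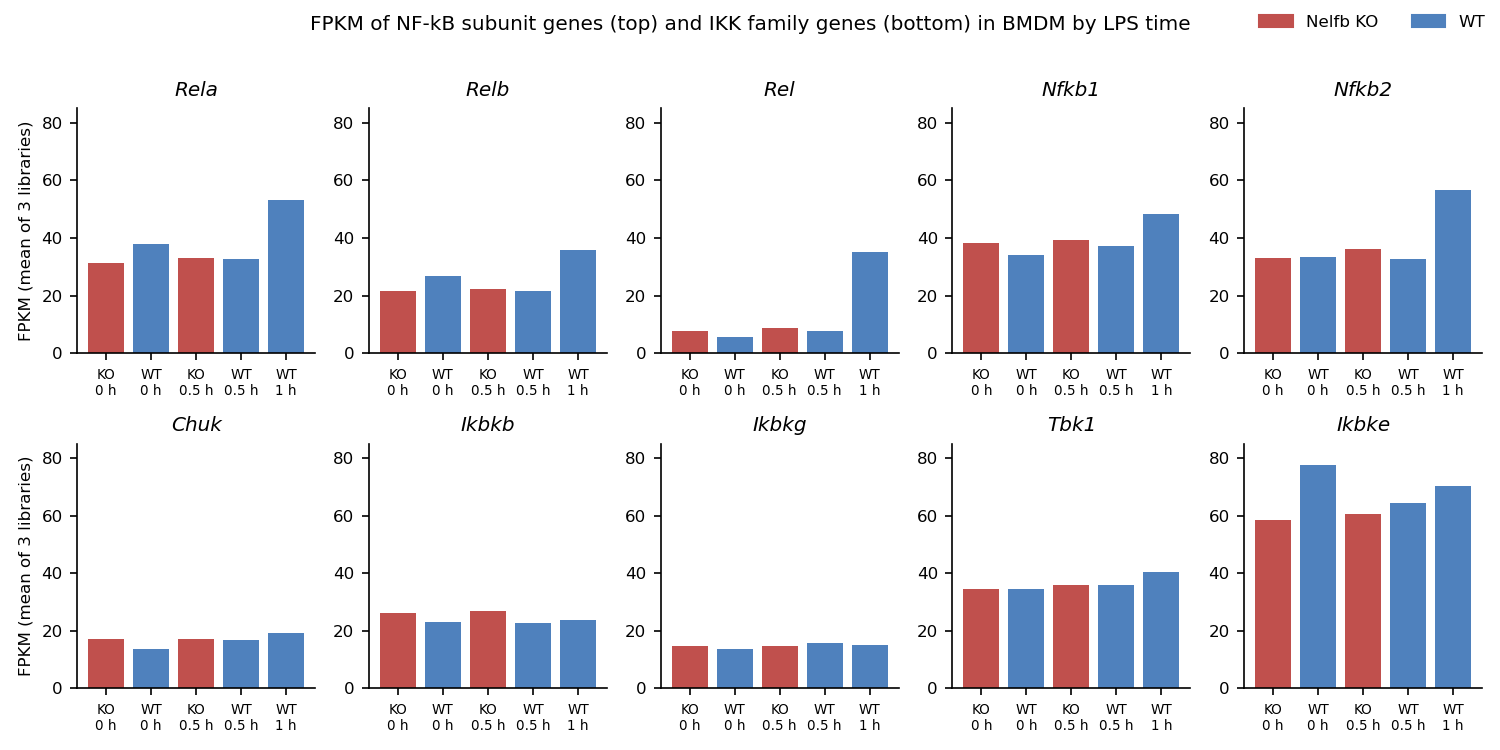
Bars give the FPKM (authors' mean of 3 libraries, y axis from 0) of each gene in resting Nelfb KO, resting WT, Nelfb KO at 0.5 h of LPS, WT at 0.5 h and WT at 1 h. Red bars are Nelfb KO and blue bars are WT. Rel goes up to 35.02 FPKM in WT at 1 h and is under 9 FPKM in the other groups, and Ikbke has the highest bar of every group.

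At 1 h of LPS against rest in WT the median log2 ratio was 0.49 over the subunit genes and 0.12 over the IKK family genes, whereas at 0.5 h it was -0.03 over the subunit genes and 0.07 over the IKK family genes. Rel changed most of the 10. It had 5.65 FPKM at rest, 7.66 FPKM at 0.5 h and 35.02 FPKM at 1 h in WT, a log2 ratio of 2.44 for 1 h against rest that ranked at 99 from the top of the 11258 genes. Nfkb2, the p100 and p52 gene, had 33.3 FPKM at rest, 32.6 FPKM at 0.5 h and 56.8 FPKM at 1 h (log2 ratio of 1 h against rest 0.75). Rel and Nfkb2 were the 2 of 10 genes past 1.5-fold at 1 h against rest, both higher, where 11.3% of all kept genes were past the limit (4.62% higher, 6.67% lower).

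The other subunit genes were also higher at 1 h than at rest, but by less. Nfkb1, the p105 and p50 gene, had 34.2 FPKM at rest, 37.3 FPKM at 0.5 h and 48.5 FPKM at 1 h (log2 ratio of 1 h against rest 0.49). Rela had 37.9 FPKM at rest, 32.7 FPKM at 0.5 h and 53.2 FPKM at 1 h (0.48). Relb had 26.9 FPKM at rest, 21.4 FPKM at 0.5 h and 35.9 FPKM at 1 h (0.40). These log2 ratios of 0.40 to 0.49 lay within the central 95% of all kept genes, which ran from -0.79 to 1.06. The median over the 5 subunit genes was 0.49, against -0.02 over all kept genes.

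Set against 0.5 h rather than rest, 4 of the 5 subunit genes passed 1.5-fold at 1 h in WT, namely Rel, Nfkb2, Relb and Rela. Among all kept genes 4.74% were past that limit (3.53% higher, 1.22% lower). The log2 ratios of 1 h against 0.5 h were 2.06 for Rel, 0.78 for Nfkb2, 0.72 for Relb, 0.69 for Rela and 0.37 for Nfkb1. For Relb and Rela the value at 0.5 h was below that at rest, with log2 ratios of 0.5 h against rest of -0.31 and -0.21. At 0.5 h itself no gene of the 10 was past 1.5-fold of rest in WT (all kept genes: 5.24% past the limit, 0.799% higher and 4.44% lower), and the log2 ratio of Rel was 0.38. With a smooth trend on transcript length removed, that of Rel was 0.19 and that of Chuk 0.24.

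The IKK genes other than Chuk changed less. Chuk, encoding IKKα, had 13.8 FPKM at rest, 16.8 FPKM at 0.5 h and 19.3 FPKM at 1 h in WT, a log2 ratio of 0.46 for 1 h against rest that lay among those of the subunit genes. Tbk1 had 34.3 FPKM at rest, 36.1 FPKM at 0.5 h and 40.4 FPKM at 1 h (0.23). Ikbkb, encoding IKKβ, stayed between 22.8 and 23.8 FPKM over the 3 WT groups, and Ikbkg, encoding NEMO, between 13.7 and 15.7 FPKM. With the length trend described below removed, the ratios of both at 1 h against rest were slightly under 0 (Ikbkg -0.08, against 0.12 without this step). Ikbke was lower at 1 h than at rest, with 77.7 FPKM at rest, 64.4 FPKM at 0.5 h and 70.5 FPKM at 1 h (log2 ratio of 1 h against rest -0.14). None of the 5 passed 1.5-fold in any of the 6 comparisons, where 1.44% to 11.3% of all kept genes were past the limit. The median log2 ratio of the 5 at 1 h against rest was 0.12.

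**Figure D2:**
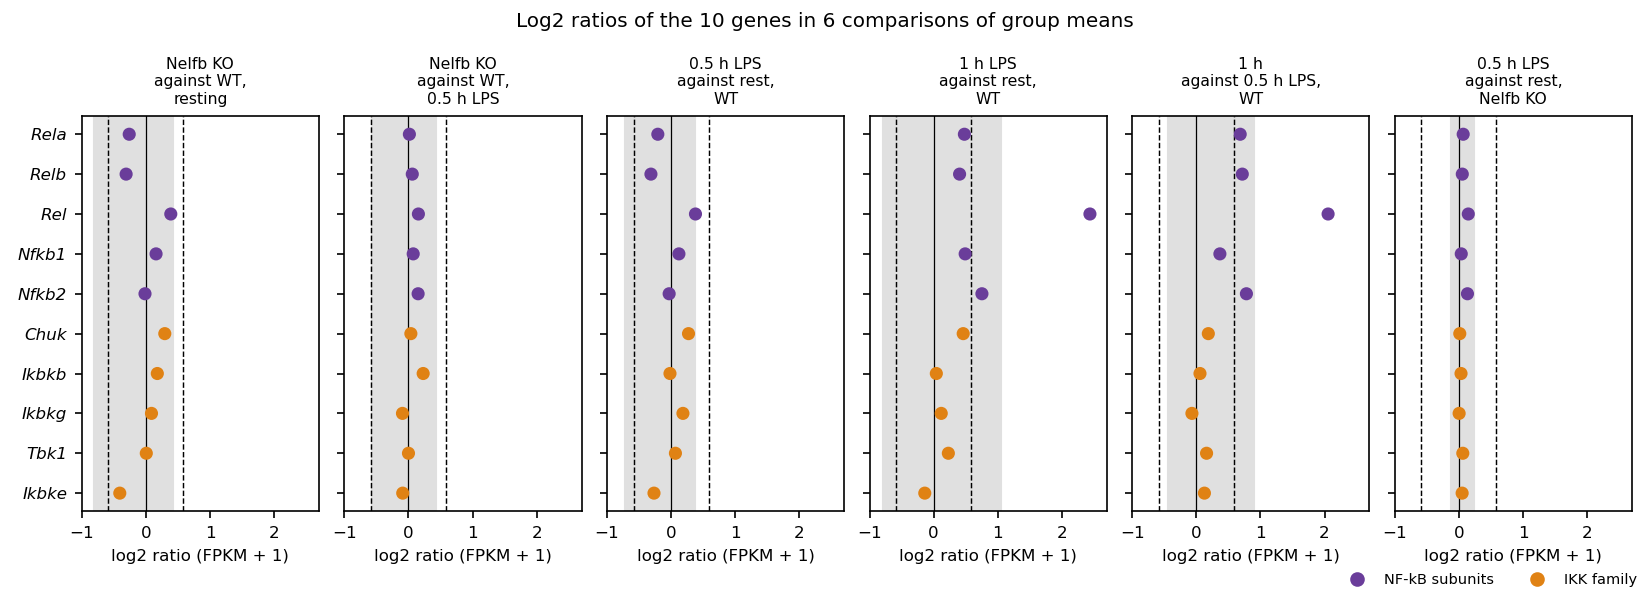
Each panel is 1 comparison and each point the log2 ratio of FPKM + 1 of 1 gene (x axis), in purple for subunits and orange for the IKK family. Dashed lines mark 1.5-fold and the grey band holds the central 95% of all kept genes. Rel is the 1 point outside the band at 1 h of LPS, with log2 ratios of 2.44 against rest and 2.06 against 0.5 h. It also lies just outside at 0.5 h against rest in WT (0.38, and 0.19 with the length trend removed), and no point passes a dashed line in either panel of Nelfb KO against WT.

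Because FPKM is scaled to transcript length, levels can be summed over a family. The FPKM summed over all genes ranged from 511973 to 615071 between the groups. Small differences between family sums are therefore not read as changes. The summed FPKM of the 5 subunit genes was 137.9 at rest, 131.7 at 0.5 h and 229.4 at 1 h in WT. The share of Rel in that sum was 4.10% at rest, 5.82% at 0.5 h and 15.3% at 1 h. The FPKM of Rela was 6.70 times that of Rel at rest, 4.27 times at 0.5 h and 1.52 times at 1 h. Nfkb2 kept a similar share, with 24.1% at rest and 24.8% at 1 h, while that of Nfkb1 was 24.8% at rest and 21.1% at 1 h. The summed FPKM of the 5 IKK family genes moved less, with 162.5 at rest, 155.8 at 0.5 h and 168.9 at 1 h in WT. In resting Nelfb KO the subunit genes summed to 132.0 FPKM and Rel made up 5.84% of it, and in Nelfb KO at 0.5 h they summed to 139.7 FPKM with 6.19% from Rel.

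**Figure D3:**
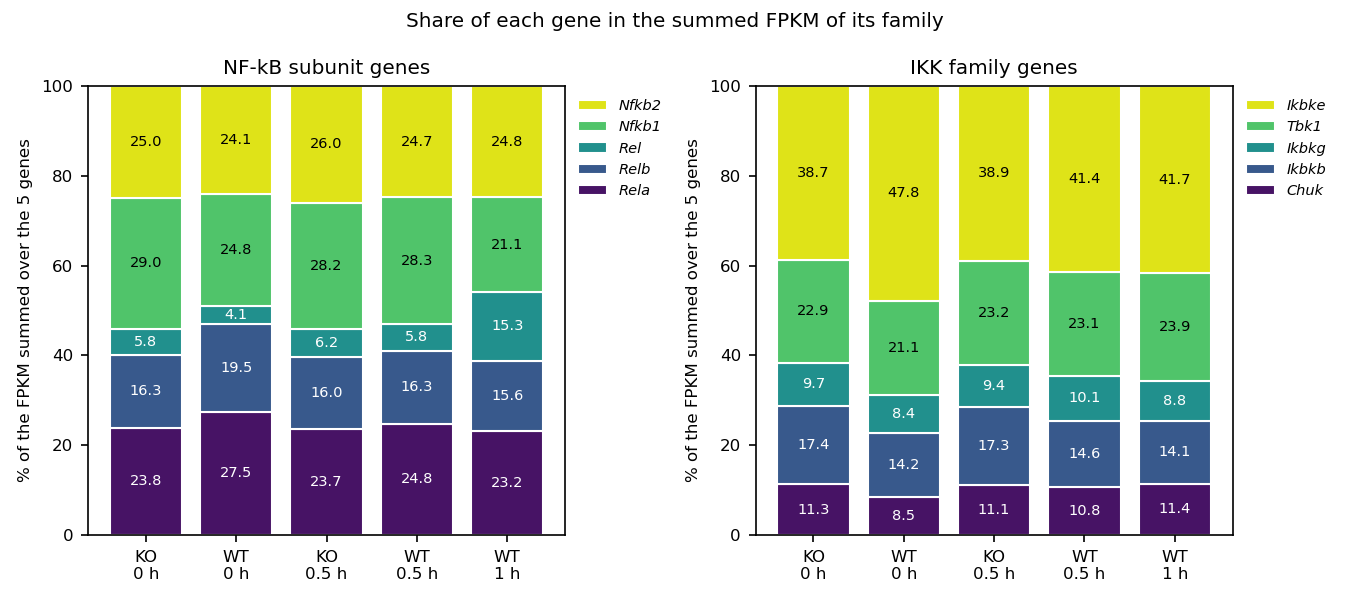
Stacked bars give the percent of the FPKM summed over 5 subunit genes (left) and 5 IKK family genes (right) that each gene made up in each group, from the authors' group means. Rel takes 15.3% of the subunit sum in WT at 1 h and 4.1% to 6.2% in the other groups, and Ikbke takes 38.7% to 47.8% of the IKK sum.

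The next question was whether loss of NELF altered the transcripts of this pathway. In resting BMDM no gene of the 10 was past 1.5-fold in Nelfb KO against WT, where 7.82% of all kept genes were past the limit (0.915% higher, 6.9% lower). The largest difference was in Ikbke, with 58.4 FPKM in resting Nelfb KO and 77.7 FPKM in resting WT (log2 ratio -0.41). Of all kept genes, 13.7% had a ratio as low or lower. Rel had 7.71 FPKM in resting Nelfb KO and 5.65 FPKM in resting WT (0.39), and 3.73% of all kept genes had a ratio as high or higher. Relb had 21.5 FPKM in resting Nelfb KO and 26.9 FPKM in resting WT (-0.31). Chuk had 17.1 FPKM in resting Nelfb KO and 13.8 FPKM in resting WT (0.30). For Rela the values were 31.5 FPKM in resting Nelfb KO and 37.9 FPKM in resting WT (-0.26). Nfkb1 had 38.3 FPKM in resting Nelfb KO and 34.2 FPKM in resting WT (0.16). Together with it, the remaining genes Ikbkb, Ikbkg, Tbk1 and Nfkb2, had log2 ratios from -0.01 to 0.18. Over the 10 genes the median was 0.05, against a median of -0.02 over all kept genes.

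After 0.5 h of LPS, again no gene of the 10 was past 1.5-fold in Nelfb KO against WT (all kept genes: 3.76% past the limit, 1.43% higher and 2.33% lower). All 5 subunit genes had a log2 ratio above 0, from 0.01 for Rela to 0.16 for Rel, although that of Rela was under 0 with quantile normalization (-0.02) and with the length trend removed (-0.01). Rel had 8.65 FPKM in Nelfb KO and 7.66 FPKM in WT at 0.5 h. Nfkb2 had 36.3 FPKM in Nelfb KO and 32.6 FPKM in WT (0.15). Ikbkb showed the largest difference of the 10 at this time, with 26.9 FPKM in Nelfb KO and 22.8 FPKM in WT (0.23), and it was also higher in resting Nelfb KO, with 26.2 FPKM against 23.1 FPKM in resting WT (0.18). Tbk1 had 36.1 FPKM in both Nelfb KO and WT. Ikbke had 60.5 FPKM in Nelfb KO and 64.4 FPKM in WT (-0.09). Ikbkg had 14.7 FPKM in Nelfb KO and 15.7 FPKM in WT (-0.09). The 5 groups include no Nelfb KO at 1 h of LPS, the time at which Rel and Nfkb2 were highest in WT.

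Within Nelfb KO, the 10 genes were nearly level between 0.5 h of LPS and rest. All 10 log2 ratios of 0.5 h against rest lay between 0.00 and 0.15, and with quantile normalization those of Chuk, Ikbkb and Ikbkg were under 0. No gene of the 10 was past 1.5-fold (all kept genes: 1.44%, with 1.2% higher and 0.24% lower). The highest were those of Rel, with 8.65 FPKM at 0.5 h and 7.71 FPKM at rest in Nelfb KO (0.15), and Nfkb2, with 36.3 FPKM at 0.5 h and 33.0 FPKM at rest (0.13). In WT the same ratios ran from -0.31 to 0.38. All kept genes also spread less in Nelfb KO. The central 95% of their ratios ran from -0.12 to 0.24 in Nelfb KO and from -0.71 to 0.38 in WT. The narrower range in Nelfb KO was thus not particular to the 10 genes. The difference between the responses, Nelfb KO minus WT, ranged from 0.37 for Relb, 0.32 for Ikbke and 0.27 for Rela to -0.23 for Rel and -0.26 for Chuk, with a median of 0.02 over the 10 genes and over all kept genes. The sizes depended on the scaling. The difference was -0.05 for Rel with the length trend removed. With quantile normalization it was 0.13 for Ikbke and 0.16 for Rela, and the median over the 10 genes was -0.084. All kept genes moved as well, with median ratios of 0.5 h against rest of -0.0199 in Nelfb KO and 0.0245 in WT. Whether the responses differed between the genotypes could not be tested on group means.

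Resting WT often stood apart from the other groups at rest or 0.5 h. Relb had 21.5 FPKM in resting Nelfb KO, 22.4 FPKM in Nelfb KO at 0.5 h and 21.4 FPKM in WT at 0.5 h, while resting WT had 26.9 FPKM. Chuk had 17.1, 17.3 and 16.8 FPKM in the same 3 groups and 13.8 FPKM in resting WT. For 8 of the 10 genes the resting WT value lay outside the range of the other 3 groups at rest or 0.5 h: above it for Rela, Relb and Ikbke, below it for Rel, Nfkb1, Chuk, Ikbkg and Tbk1. The same held for 75.4% of all kept genes. Resting WT is shared by the comparison of genotypes at rest and by both comparisons of LPS against rest in WT, so its value enters all 3. Over all kept genes the ratios to resting WT also moved with transcript length. Of the genes past 1.5-fold in resting Nelfb KO against WT, 11.7% were higher, and 30.6% with a smooth trend on length removed. With that trend removed, the log2 ratio in resting Nelfb KO against WT was 0.25 for Rel, whose longest coding transcript has 7466 nt, and -0.20 for Relb (2209 nt), and the ratio of 1 h of LPS against rest in WT was 2.23 for Rel. It was -0.40 for Ikbke in resting Nelfb KO against WT, next to -0.41 without this step.

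Kept genes averaging 5 FPKM or more whose values relative to resting WT were nearest to those of each responsive subunit gene were then listed by Euclidean distance over the other 4 groups (7736 genes searched). For Rel these were Zc3h12c, a relative of the RNase gene Zc3h12a, the gap junction gene Gja1 and the heat shock protein gene Dnajb4, at distances of 0.39 to 0.40. Zc3h12c had 6.04 FPKM at rest, 9.57 FPKM at 0.5 h and 44.7 FPKM at 1 h in WT. For Rela they were Tgm2 (transglutaminase 2), Abracl and Pdpn (podoplanin), at 0.10 to 0.13. The gene nearest to Relb was Rela itself, at 0.15, followed by Eif1 and Tgm2. For Nfkb2 they were Mob3c, Spryd7 and Sqstm1, the gene of the autophagy receptor p62, at 0.12 to 0.14. With 1 value per group, these are likenesses of means over 5 groups.

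Other genes of the pathway were taken from lists of gene names. Of the list labelled inhibitors, 10 of 11 listed genes were in the table. The label is only the name of the list, and whether each of its genes inhibits NF-κB was not tested. In WT treated for 1 h, 7 of these 10 passed 1.5-fold of rest, all higher (4.62% of all kept genes were higher), and the median log2 ratio over the 10 was 1.45, next to 0.49 for the subunit genes and -0.02 for all kept genes. Tnfaip3, encoding the deubiquitinase A20, had 13.3 FPKM at rest, 43.0 FPKM at 0.5 h and 416 FPKM at 1 h in WT. Nfkbia, encoding IκBα, had 98.4 FPKM at rest, 283 FPKM at 0.5 h and 823 FPKM at 1 h. Next came Nfkbiz, encoding IκBζ, and Nfkbie, encoding IκBε, with log2 ratios of 2.84 and 2.42. At 0.5 h, 4 of these 10 genes were past 1.5-fold higher in Nelfb KO than in WT and none lower (all kept genes: 1.43% higher, 2.33% lower). Of these 4, Nfkbia, Tnfaip3 and Nfkbiz were also past 1.5-fold higher at 0.5 h than at rest in WT. Superinduction in Nelfb KO is reported by the paper for most genes that it called induced early by LPS. Whether the genes of this list differed from other induced genes was not tested. Nfkbia had 527 FPKM in Nelfb KO and 283 FPKM in WT (0.89), and Nfkbid, encoding IκBNS, had 22.4 FPKM in Nelfb KO and 11.9 FPKM in WT (0.87). Tnfaip3 had 71.1 FPKM in Nelfb KO and 43.0 FPKM in WT (0.71), and Nfkbiz had 132.1 FPKM in Nelfb KO and 81.5 FPKM in WT (0.69). The subunit and IKK genes had log2 ratios from -0.09 to 0.23 in the same comparison.

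In the alternative NF-κB pathway, which runs through NIK (Map3k14) and IKKα to the processing of p100, 2 of 7 genes were past 1.5-fold higher at 1 h of LPS than at rest in WT and 1 was lower (all kept genes: 4.62% higher, 6.67% lower). Birc3, encoding the ubiquitin ligase cIAP2, had 25.7 FPKM at rest, 30.8 FPKM at 0.5 h and 83.8 FPKM at 1 h. The receptor gene Cd40 had 6.37 FPKM at rest, 5.07 FPKM at 0.5 h and 17.4 FPKM at 1 h. The lymphotoxin β receptor gene Ltbr was lower, with 59.0 FPKM at rest, 40.7 FPKM at 0.5 h and 36.7 FPKM at 1 h. In Nelfb KO Ltbr had 44.7 FPKM at rest and 43.3 FPKM at 0.5 h, so resting WT was its highest group. Between the genotypes, no gene of this list was past the limit, resting (7.82% of all kept genes) or after 0.5 h of LPS (3.76%).

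Of 6 partners of TBK1 and IKKε, Irf7, encoding an interferon regulatory factor that these kinases phosphorylate, was past 1.5-fold lower in Nelfb KO at both times (all kept genes: 6.9% lower at rest, 2.33% at 0.5 h). It had 51.1 FPKM in resting Nelfb KO and 103 FPKM in resting WT (log2 ratio -1.003), and 49.1 FPKM in Nelfb KO and 78.6 FPKM in WT at 0.5 h (-0.67). The adaptor gene Tank was the 1 gene of this list past the limit in the LPS response of WT at 1 h (all kept genes: 11.3%), with 35.4 FPKM at rest, 43.9 FPKM at 0.5 h and 58.4 FPKM at 1 h (log2 ratio of 1 h against rest 0.71).

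**Figure D4:**
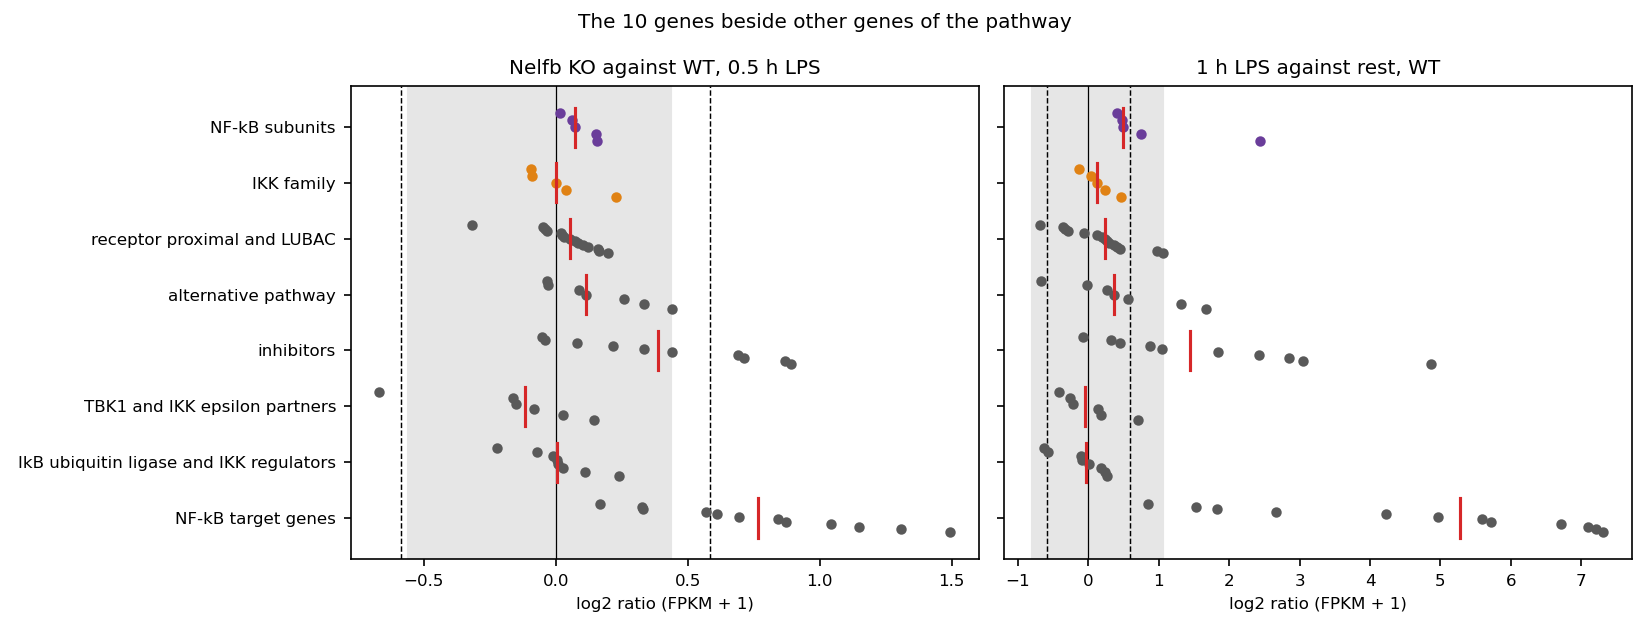
Points are log2 ratios of FPKM + 1 of single genes in lists of the pathway, for Nelfb KO against WT at 0.5 h (left) and 1 h of LPS against rest in WT (right); the x axes differ in range. Red bars are list medians, dashed lines mark 1.5-fold and the grey band holds the central 95% of all kept genes. At 0.5 h the 10 subunit and IKK genes lie between -0.09 and 0.23. Beyond the upper dashed line lie 4 genes of the list labelled inhibitors and 8 target genes.

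Some of the 10 genes overlap others, and whether fragments were counted by strand is not given in the sources used here. Exons of Ikbkg share 418 nt (5.15% of its exonic bases) with G6pdx on the opposite strand, which had 82.9 to 87.0 FPKM. Exons of Nfkb2 share 531 nt (11.6%) with the noncoding gene AC114539.1 and 299 nt (6.52%) with Psd, both on the opposite strand. Psd had under 1 FPKM in every group. Ikbke shares 65 and 159 nt with the antisense genes Gm28913 and Gm28914. For Ikbkg, Nfkb2 and Ikbke the FPKM may include fragments of these neighbours. Coordinates of the genes in GRCm38 (GENCODE M21) are chr19:5637483-5648130 for Rela, chr7:19606217-19629438 for Relb, chr11:23736847-23770970 for Rel, chr3:135584655-135691547 for Nfkb1 and chr19:46304320-46312385 for Nfkb2. The IKK family genes lie at chr19:44073335-44107480 (Chuk), chr8:22659212-22706589 (Ikbkb), chrX:74393290-74453854 (Ikbkg), chr10:121546455-121586787 (Tbk1) and chr1:131254343-131279606 (Ikbke).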

How the data were processed

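Genotype and time in the sample titles gave the groups. The authors processed reads with CASAVA 1.8, aligned read pairs with TopHat2 2.1.0 against mm10, kept uniquely mapped reads, and obtained FPKM from Cuffdiff in Cufflinks 2.2.1; the deposited FPKM is 1 mean of 3 libraries per gene and group. The linear ratio of FPKM + 1 in the authors' table, headed as log2, and its p-value and q-value columns hold the authors' own comparisons and were not used. A group is repeated in 3 columns, with another value for 17 genes and none of the 10 described, and the first column of a group was used.

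Of 23996 genes, the 11258 that averaged 0.5 FPKM or more were kept. The log2 ratios took a pseudocount of 1, and a 1.5-fold limit stood in for a test, which group means do not allow. Depth per library is unknown here. The members and gene lists were chosen with earlier results of these data known. All 10 members are named, with Nelfb; of each list, in each comparison described, up to 4 genes with the largest ratios among those past the limit; and for members spanning 1.5-fold over the groups, the 3 nearest profiles. Positions and transcript lengths (11185 kept genes, 99.4%) came from GENCODE M21, and promoter sequences from RefSeq (GRCm38.p6). The length trend was removed by lowess (fraction 0.3). Ratios, calls and the trend step were tested on simulated data. The ratios, calls and response differences of the 10 genes and the counts over all kept genes were recomputed under several alternatives. Those that recompute the ratios were quantile normalization, scaling to the median ratio, removal of the length trend and a pseudocount of 0.1. The rest were all genes unfiltered, genes averaging 1 FPKM or more, a fold of 2, the study's limits of 1.4 and 0.6, and the repeated columns. The gene lists, family sums, cell type markers and nearest profiles were computed with the main settings only. Python 3.11.15, numpy 2.4.6, pandas 2.3.3, statsmodels 0.14.6 and matplotlib 3.10.9 were used.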

Additional observations from a re-analysis of the deposited data

How the results depend on the processing

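The filters and the repeated columns leave the ratios of the 10 genes as they are by construction, and the other limits move only the limit. Under the alternatives that recompute the ratios (pseudocount, median scaling, quantile normalization, length trend), all 240 ratios stayed on their side of 1.5-fold. With a fold of 2 as the limit, 1 gene, Rel, passed at 1 h of LPS in WT against rest (2 with 1.5-fold) and also 1 against 0.5 h (4 with 1.5-fold). Among all kept genes, 2.66% were higher and 0.924% lower by 2-fold at 1 h against rest, and 2.22% and 0.4% against 0.5 h. With the limits of 1.4 and 0.6, Nfkb1 also passed at 1 h against rest, at a log2 ratio of 0.49 (all kept genes: 6.26% higher, 3.22% lower). Rel kept a log2 ratio of 2.23 to 2.61 at 1 h against rest. In Nelfb KO against WT at rest and at 0.5 h no gene of the 10 passed under any alternative. Their largest log2 ratio in either direction was 0.44. Of the genes tested under each alternative, 0.338% to 1.87% were higher and 1.02% to 9.26% lower at rest. At 0.5 h it was 0.64% to 2.16% higher and 0.471% to 3.91% lower. The median difference of the responses of the 10 genes to 0.5 h of LPS, Nelfb KO minus WT, was -0.084 with quantile normalization, against 0.02. With that normalization the median ratios over all kept genes were -0.0199 in Nelfb KO and 0.0245 in WT.

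Counts over all kept genes moved more. In resting Nelfb KO against WT, 103 were higher and 777 lower (11.7% of calls higher). With a pseudocount of 0.1, 211 were higher and 1043 lower, with quantile normalization 158 and 545 (22.5% higher), and with the length trend removed 180 and 409 (30.6%). For 0.5 h against rest in WT the split was 90 higher and 500 lower, against 107 and 155 with the length trend removed and 102 and 327 with quantile normalization. For 1 h against rest in WT it was 520 and 751, against 520 and 335 with the length trend removed. In WT at 1 h against 0.5 h, 137 were lower, against 337 with a pseudocount of 0.1, where 451 were higher. In Nelfb KO against WT at 0.5 h, 161 were higher and 262 lower, against 243 and 440. Over the 6 comparisons, 27 to 777 genes were lower by 1.5-fold, 24 to 115 by 2-fold and 25 to 406 by the limit of 0.6, and 90 to 520 were higher by 1.5-fold, 38 to 300 by 2-fold and 123 to 705 by the limit of 1.4.

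No paired analysis was possible because the table holds group means only, and leaving out each replicate was not run for the same reason. The spread between libraries, which limits every comparison here, is unknown.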

Other observations

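The NF-κB target genes of the pathway lists had larger ratios at 1 h than the subunit genes by their median log2 ratios (5.27 and 0.49). All 12 were past 1.5-fold higher at 1 h of LPS than at rest in WT, and 8 of 12 were at 0.5 h (all kept genes: 4.62% higher at 1 h, 0.799% at 0.5 h). The list was chosen with earlier results of these data known, so these counts do not test a trait of NF-κB targets. The largest ratio of the 12 at 1 h was that of the chemokine gene Cxcl1, with 2.67 FPKM at rest, 40.1 FPKM at 0.5 h and 583 FPKM at 1 h. Il1b, encoding interleukin-1β, had 3.21 FPKM at rest, 20.6 FPKM at 0.5 h and 624 FPKM at 1 h. Cxcl2, a neutrophil chemokine gene, had 9.93 FPKM at rest, 129.8 FPKM at 0.5 h and 1487 FPKM at 1 h. At 0.5 h, 8 of 12 were past 1.5-fold higher in Nelfb KO than in WT and none lower (all kept genes: 1.43% higher, 2.33% lower). They were the same 8 genes that were past 1.5-fold higher at 0.5 h than at rest in WT. The paper reports that most of the genes it called induced early by LPS were superinduced in Nelfb KO. All kept genes are thus not a matched reference here, and a difference from other induced genes was not tested. Cxcl10 had 58.5 FPKM in Nelfb KO and 23.0 FPKM in WT (log2 ratio 1.31). Il1b had 59.9 FPKM in Nelfb KO and 20.6 FPKM in WT (1.49). Ptgs2, encoding cyclooxygenase-2, had 11.6 FPKM in Nelfb KO and 4.70 FPKM in WT (1.15), and Cxcl2 had 268 FPKM in Nelfb KO and 129.8 FPKM in WT (1.04). At rest none of the 12 was past the limit in Nelfb KO against WT (all kept genes: 7.82%).

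Upstream of the kinases, 2 of 15 receptor-proximal genes were past 1.5-fold higher at 1 h of LPS than at rest in WT and 1 was lower, next to 4.62% higher and 6.67% lower among all kept genes. Ticam1, encoding the adaptor TRIF, had 9.30 FPKM at rest, 10.1 FPKM at 0.5 h and 20.4 FPKM at 1 h. Irak2, encoding a kinase of the MyD88 complex, had 20.8 FPKM at rest, 24.0 FPKM at 0.5 h and 41.8 FPKM at 1 h. Tab1, encoding a partner of the kinase TAK1, was lower, with 8.56 FPKM at rest, 6.63 FPKM at 0.5 h and 4.91 FPKM at 1 h. Of the 15 genes, Tab1 alone was past the limit in the comparison of genotypes at rest (all kept genes: 0.915% higher, 6.9% lower). It had 5.26 FPKM in resting Nelfb KO and 8.56 FPKM in resting WT. Resting WT, which enters both calls, was the highest of the 5 groups for Tab1. Of 8 genes for the IκB ubiquitin ligase and IKK regulators, Commd1 and Cdc37 were past 1.5-fold lower in resting Nelfb KO against resting WT and none was past the limit at 0.5 h (all kept genes: 6.9% lower at rest, 3.66% with the length trend removed, and 3.76% past the limit at 0.5 h). Commd1 had 59.6 FPKM in resting Nelfb KO, 94.2 FPKM in resting WT, 64.7 FPKM in Nelfb KO at 0.5 h and 59.9 FPKM in WT at 0.5 h. Cdc37 had 69.4 FPKM in resting Nelfb KO, 105.9 FPKM in resting WT, 70.9 FPKM in Nelfb KO at 0.5 h and 69.5 FPKM in WT at 0.5 h. For both genes resting WT was the highest of these 4 groups. Both were also past 1.5-fold lower at 0.5 h than at rest in WT (all kept genes: 4.44% lower). The calls of this list were not recomputed with the length trend removed.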
